A study of Mus musculus with 2 samples.

Results

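H3K9me3 of mouse LSK cells was read out at genes of protein synthesis in a table of H3K4me3 regions. The genes were those of cytoplasmic ribosomal proteins, mitochondrial ribosomal proteins, assembly factors of the 60S ribosomal subunit, and cytosolic aminoacyl-tRNA synthetases. Members were taken by gene symbol alone, the first 2 groups by their Rpl, Rps, Mrpl and Mrps symbols and the others from short lists of 6 genes each. The symbols matched 39 of the 1381 regions and 37 of the 1296 genes in the table. These were 15 regions of 14 cytoplasmic ribosomal protein genes, 11 regions of 11 mitochondrial ribosomal protein genes, 6 regions of 6 assembly genes and 7 regions of 6 synthetase genes.

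LSK cells are bone marrow cells that lack lineage markers and carry Sca-1 and c-Kit, a fraction that holds blood stem and progenitor cells. The knockout library came from conditional knockout mice of the C57BL6 strain that lost Kdm4a, Kdm4b and Kdm4c, and the control library from WT control mice of that strain. Tamoxifen was given to both kinds of mice, and cells were sorted 2 weeks later, fixed with formaldehyde and used for ChIP-seq (chromatin immunoprecipitation and sequencing) of H3K9me3. Neither the driver of the deletion nor the number of mice behind each library is given in the sources used here.

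Kdm4 proteins are demethylases that remove methyl groups from H3K9me3, a histone mark of silenced chromatin, whereas H3K4me3 marks active start sites. Ribosomal proteins join ribosomal RNA in the nucleolus, assembly factors ripen the large subunit and release it for use, and synthetases charge transfer RNAs with amino acids. Start sites of cytoplasmic ribosomal protein genes are among the most active in dividing cells. In humans, loss of a single copy of certain ribosomal protein genes, RPS19 among them, causes Diamond-Blackfan anaemia, and SBDS is mutated in Shwachman-Diamond syndrome, both disorders of blood formation.

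The libraries had totals of 26061344 reads in the knockout and 24673463 in the control, so that a read was worth 0.0384 and 0.0405 RPM (reads scaled to library size). With 1 library in each group there was no spread between replicates, no test between genotypes and no p-value. Ratios of knockout to control RPM are therefore given with exact 95% counting intervals, which cover counting error between these libraries only. The table holds only ratios above 2 (the lowest was 2.01) and regions with at least 1 control read, so each member was higher in the knockout because of how the table was assembled. Of 10 LSK marker genes only Ly6a had a region in the table, none of 11 markers of other blood cells had one, and none of the 4 genes Kdm4a to Kdm4d did. These counts therefore check neither the sort nor the deletion. More mark per cell and more cells with the mark cannot be told apart in such bulk chromatin.

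RefSeq promoter sequence of build GRCm38.p6, from 250 bases before to 50 after the start site, was held for 28 of the 37 member genes. Among these, the genes with the most reads in each group are shown. Their listed regions overlap this window by 300 bases at Rps7 and Mrpl36, 259 at Rpl37a, 95 at Farsb and 35 at Ebna1bp2. Such overlap was found for 17 of the 28 genes and did not decide the choice. Each run covers 100 bases before to 20 after the RefSeq start site, 5′ to 3′ on the gene's strand. The runs are shorter than the window, so that of Farsb lies outside its listed region. That of Ebna1bp2 reaches only the edge of its region. In the group of cytoplasmic ribosomal proteins, Rpl37a and Rps7 had equal read sums, so both are given. In the printed runs, capitals mark matches on either strand to CCGGAAG (an ETS factor motif), CACGTG (the E-box), CATGCGC (the core of the NRF1 motif) and AAGATGG (YY1).
Rpl37a, chr1:72711160-72711279, plus strand: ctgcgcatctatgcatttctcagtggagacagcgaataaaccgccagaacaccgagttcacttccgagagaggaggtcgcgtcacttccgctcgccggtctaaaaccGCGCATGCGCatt
Rps7, chr12:28635934-28636053, minus strand: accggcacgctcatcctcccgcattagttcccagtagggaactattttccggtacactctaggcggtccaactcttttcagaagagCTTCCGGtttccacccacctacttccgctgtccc
Mrpl36, chr13:73330909-73331028, plus strand: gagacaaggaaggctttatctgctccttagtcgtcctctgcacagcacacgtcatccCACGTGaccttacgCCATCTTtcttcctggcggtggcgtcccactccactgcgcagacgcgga
Ebna1bp2, chr4:118620699-118620818, plus strand: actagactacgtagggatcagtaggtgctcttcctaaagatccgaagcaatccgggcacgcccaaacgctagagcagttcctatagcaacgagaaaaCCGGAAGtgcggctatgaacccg
Farsb, chr1:78488878-78488997, minus strand: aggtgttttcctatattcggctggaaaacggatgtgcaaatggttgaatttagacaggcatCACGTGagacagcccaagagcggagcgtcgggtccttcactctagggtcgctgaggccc

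In the whole window, CCGGAAG was present in 9 of the 28 member promoters (32.1%), against 26.8% of 1145 promoters of genes in the table and 8.86% of all 32851 RefSeq promoters. The E-box was present in 6 members (21.4%), against 11.1% and 7.15% of the same sets, and 3 of the 6 were synthetase genes. AAGATGG was present in 7 members (25%), 5 of them cytoplasmic ribosomal protein genes, against 8.38% and 6.34%. CATGCGC was found in 3 members (10.7%), against 7.86% and 3.91%, and TATAAA, the TATA box, in 1 member (3.57%), against 5.68% and 13.6%. Matches of different motifs did not overlap in any member. The median number of CG dinucleotides in the window was 19.5 in members and 21 in genes of the table. These matches describe letters in a window and were not tested. Members count 1 promoter per gene, that nearest the listed start site. The other sets count every promoter held for their genes, those of members included.

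Together, the 39 member regions held 283 knockout reads and 68 control reads, a joint ratio of 3.94 (95% counting interval 3.01 to 5.21). The rest of the table held 11972 and 3311 reads, a joint ratio of 3.42 (3.29 to 3.56), and these intervals overlapped. A member region held 3 to 23 knockout reads (median 6) and 1 to 4 control reads (median 1). Over the whole table the medians were 6 knockout and 2 control reads, and the highest values were 77 and 32. Levels at these genes were thus a few reads in both libraries, well below the highest regions of the table. The median log2 ratio, computed after adding 0.0405 RPM to both libraries, was 1.26 in the members and 1.26 in the whole table.

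For 9 of the 39 member regions (23.1%) the counting interval lay above 1, against 21.1% of all regions in the table. Among these were Rps7, Rps19, Rpl37a, Mrpl15, Sbds, Ebna1bp2, Farsb and Dars. By the rule set for size, 14 of 39 member regions (35.9%), against 43.4% of the table, were at least 2-fold higher in the knockout after the pseudocount and had a mean no lower than the table's median. These shares were near those of the table. With 1 control read a region needed 3 knockout reads to enter the table and 8 for an interval above 1, and with 3 control reads it needed 7 and 12. At 15 of the 39 regions (38.5%), against 33.7% of the table, the knockout reads were the fewest with which a region of that control count could be listed.

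**Figure D1:**
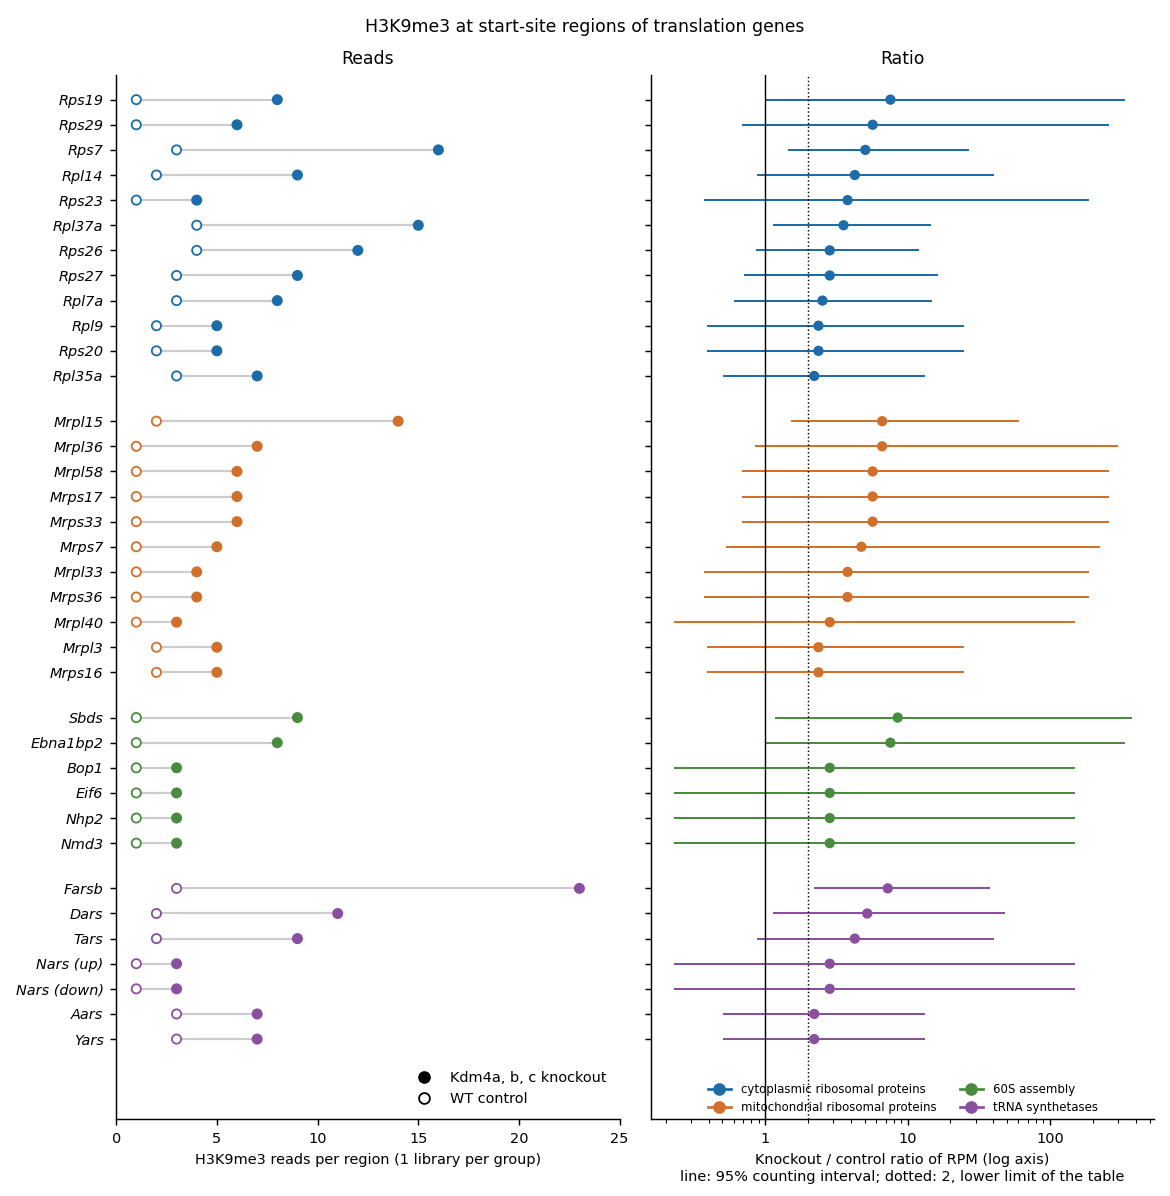
Left, H3K9me3 reads in 36 of the 39 member regions in the knockout library (filled) and the control library (open); right, the knockout over control ratio of RPM on a log axis with its exact 95% counting interval, by group of genes. Control reads lie between 1 and 4 throughout, knockout reads reach 23 at Farsb, and 8 of the 36 intervals drawn lie wholly above 1; "up" and "down" mark the upstream and downstream regions of Nars.

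**Figure D2:**
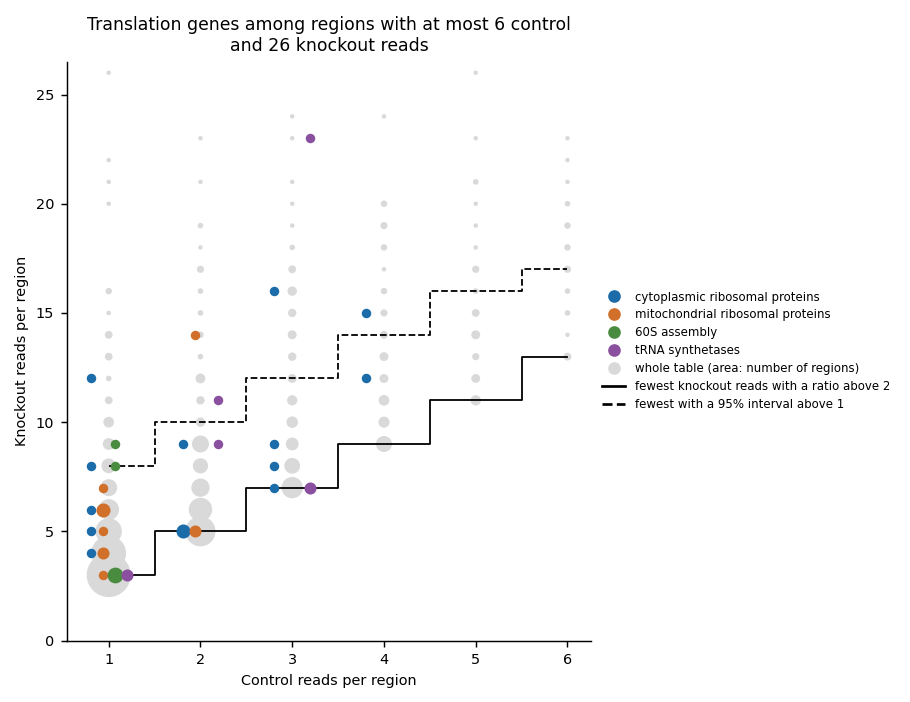
Knockout reads (vertical) against control reads (horizontal) of each region, with members in colour, shifted sideways by group, and the table in grey, limited to at most 6 control and 26 knockout reads. The solid step is the fewest knockout reads with a ratio above 2 and the dashed step the fewest with an interval above 1; 15 of 39 members lie on the solid step and 9 on or above the dashed step.

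Cytoplasmic ribosomal protein genes held 126 knockout and 33 control reads in 15 regions, a joint ratio of 3.61 (2.45 to 5.48). The 4 regions with an interval above 1 (26.7%, against 21.1% of the table) included those of Rps7 and Rps19 of the small subunit and Rpl37a of the large subunit. At Rps7 (chromosome 12, 28635846 to 28636669, spanning the start site) 16 knockout reads (0.614 RPM) stood against 3 control reads (0.122 RPM), a ratio of 5.05 (1.45 to 27.0). Rps7 thus had the most knockout reads of the group. At Rpl37a (chromosome 1, 72710908 to 72711268, ending 9 bp past the start site) there were 15 knockout reads (0.576 RPM) and 4 control reads (0.162 RPM), a ratio of 3.55 (1.13 to 14.7).

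Rps19, the gene most often mutated in Diamond-Blackfan anaemia in humans, had 8 knockout reads and 1 control read upstream of its start site (chromosome 7, 24883720 to 24884476), a ratio of 7.57 (1.02 to 336).

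The intervals of the other small subunit genes named here included equal rates. Rps26 (chromosome 10, 128625221 to 128626873) had 12 knockout and 4 control reads, a ratio of 2.84 (0.86 to 12.1), in the widest member region (1653 bp). Rps27 had 9 and 3 reads, also a ratio of 2.84 (0.71 to 16.3), Rps29 had 6 and 1 (5.68, 0.69 to 261) and Rps23 had 4 and 1 (3.79, 0.37 to 186). Rps20 had 5 knockout and 2 control reads, the fewest with which a region with 2 control reads is listed. Small subunit genes together had 82 knockout and 19 control reads in 10 regions, a ratio of 4.09 (2.46 to 7.13).

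Large subunit genes had 44 knockout and 14 control reads in 5 regions, a ratio of 2.98 (1.60 to 5.88), which overlapped that of the small subunit. Beside Rpl37a these were Rpl14 with 9 knockout and 2 control reads (4.26, 0.88 to 40.5), Rpl7a with 8 and 3 (2.52, 0.61 to 14.8), Rpl9 with 5 and 2 (2.37, 0.39 to 24.9) and Rpl35a with 7 and 3 (2.21, 0.50 to 13.2). The Rpl9 and Rpl35a regions were at the lowest listed count for their control reads. RefSeq lists pseudogenes named after 13 of the 14 cytoplasmic ribosomal protein genes (14 for Rpl7a and 13 for Rps19). Since the handling of multiply mapped reads is unknown here, single values of these genes are uncertain. The part of such reads in the result was not tested. Rpl7a and Rps20 also hold small nucleolar RNA genes within the gene.

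Mitochondrial ribosomal proteins, made in the cytosol from nuclear genes, build the ribosome that translates the mitochondrial genome. Their 11 regions held 65 knockout and 14 control reads, a joint ratio of 4.40 (2.44 to 8.48), and 8 of the 11 held a single control read. Only Mrpl15, a large subunit protein gene, had an interval above 1 (1 of 11, 9.09%, against 21.1% of the table). Its region upstream of the start site (chromosome 1, 4785762 to 4786507) held 14 knockout reads (0.537 RPM) and 2 control reads (0.0811 RPM), a ratio of 6.63 (1.52 to 60.1). The other 10 regions of the group held 3 to 7 knockout reads.

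The next gene by reads was Mrpl36 of the large subunit (chromosome 13, 73330645 to 73331062, spanning the start site), with 7 knockout reads and 1 control read (6.63, 0.85 to 299). Mrpl58, an enzyme of the large subunit that frees stalled ribosomes, and Mrps17 and Mrps33 of the small subunit each had 6 knockout reads and 1 control read (5.68, 0.69 to 261). Mrps7 had 5 and 1 reads (4.73, 0.53 to 224), and Mrpl33 and Mrps36 had 4 and 1 each (3.79, 0.37 to 186). RefSeq lists 3 pseudogenes named after Mrps36, so its value is uncertain in the same way as those of the cytoplasmic genes. Mrpl40 with 3 and 1 reads, and Mrpl3 and Mrps16 with 5 and 2 each, were at the lowest listed count. Large subunit genes held 39 knockout and 8 control reads (4.62, 2.13 to 11.4), and small subunit genes 26 and 6 (4.10, 1.65 to 12.2).

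The 60S assembly genes held 29 knockout and 6 control reads in 6 regions, a joint ratio of 4.58 (1.87 to 13.5), with a single control read in every region. Reads were unequal within the group: Sbds and Ebna1bp2 held 17 of the 29 knockout reads, and the other 4 genes were at the lowest listed count. Sbds, which with a partner GTPase removes Eif6 from the new large subunit, had 9 knockout reads (0.345 RPM) and 1 control read (0.0405 RPM) in a region spanning its start site (chromosome 5, 130254158 to 130255641), a ratio of 8.52 (1.18 to 373). Ebna1bp2, a nucleolar factor of ribosomal RNA processing, had 8 knockout reads and 1 control read just inside the gene (chromosome 4, 118620814 to 118621957), a ratio of 7.57 (1.02 to 336). These 2 genes were the ones with an interval above 1 (33.3%, against 21.1% of the table).

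Eif6, which keeps immature large subunits from joining small ones, had 3 knockout reads and 1 control read, a ratio of 2.84 (0.23 to 149). The same reads were found at Bop1, a ribosomal RNA processing factor, at Nmd3, an export adaptor of the large subunit, and at Nhp2, a protein of H/ACA small nucleolar ribonucleoproteins and of telomerase. Equal rates, and much larger differences, both lay within these intervals. Sbds and Eif6, which act on the same step, thus had 9 and 3 knockout reads against 1 control read each, and their intervals overlapped.

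Synthetase genes held 63 knockout and 15 control reads in 7 regions, a joint ratio of 3.98 (2.24 to 7.52). Farsb, the beta subunit of the phenylalanine enzyme, had 23 knockout reads (0.883 RPM) and 3 control reads (0.122 RPM) upstream of its start site (chromosome 1, 78489053 to 78489591), a ratio of 7.26 (2.19 to 37.8). It had the most knockout reads of all members and was the sole member whose interval lay above 2. Dars, the aspartate enzyme, had 11 knockout and 2 control reads within the gene (chromosome 1, 128416310 to 128417007), a ratio of 5.21 (1.14 to 48.3). These 2 of 7 regions had an interval above 1 (28.6%, against 21.1% of the table).

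Tars, the threonine enzyme, had 9 knockout and 2 control reads upstream (chromosome 15, 11399816 to 11400527), a ratio of 4.26 (0.88 to 40.5). Aars and Yars, the alanine and tyrosine enzymes, had 7 knockout and 3 control reads each (2.21, 0.50 to 13.2). Nars, the asparagine enzyme, had a region upstream and one within the gene, with 3 knockout reads and 1 control read in each (2.84, 0.23 to 149). The sums count these reads separately. Since the counting window is not known, whether both regions hold the same reads was not tested. Aars, Yars and both Nars regions were at the lowest listed count for their control reads. Without Farsb the joint ratio of the synthetase genes was 3.16.

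**Figure D3:**
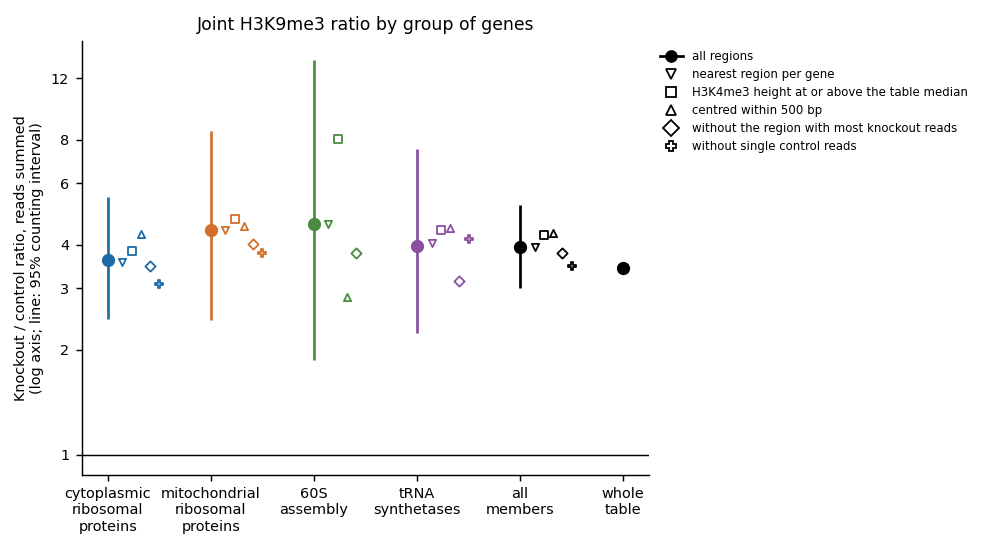
Joint knockout over control ratio of the 4 groups, of all members and of the whole table, with reads summed over regions and exact 95% counting intervals on a log axis; open symbols give the ratio under other choices of regions. The groups lie between 3.61 and 4.58 with overlapping intervals, and the table at 3.43.

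The 4 joint ratios differed by less than their counting intervals, as the plot of joint ratios shows. A fit added after the values were seen limits the outcomes to those the table could hold, and gives 1 common fold. It was 3.78 (2.43 to 5.89) for the 39 members and 2.68 (2.52 to 2.84) for the rest of the table, with overlapping ranges, and the difference was not tested. For the cytoplasmic ribosomal proteins it was 2.74 (1.41 to 5.08) and for the synthetases 3.92 (1.69 to 9.04), both below the joint ratios of the same regions. For the mitochondrial ribosomal proteins it was 6.78 (2.10 to 29.3), above their joint ratio of 4.40. Of their 11 regions, 8 held a single control read. Such regions hold the highest share of knockout reads that this fit allows. For 60S assembly, where all 6 regions held a single control read, the fit could therefore reach no upper limit. Its lower limit was 3.04. The 4 regions with 3 knockout reads add nothing to it, since no other split of their reads could be listed. That limit thus rests on Sbds and Ebna1bp2 alone, and the group's difference from the rest of the table was not tested.

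Of the 39 member regions, 13 lay wholly upstream of the listed start site, 8 spanned it and 18 lay wholly downstream (33.3%, 20.5% and 46.2%, against 33.5%, 23.5% and 43.0% of the table). Upstream members held 107 knockout and 22 control reads (4.60, 2.89 to 7.65), spanning members 75 and 16 (4.44, 2.56 to 8.16) and downstream members 101 and 30 (3.19, 2.10 to 4.96). In the whole table these ratios were 3.48 upstream, 3.50 spanning and 3.36 downstream. Upstream and spanning regions held 7 of the 9 members' intervals above 1 (77.8%), against 188 of 292 in the table (64.4%), and they made up 53.8% of members and 57.0% of the table. Dars and Ebna1bp2 were the downstream members with such an interval. The order of the 3 positions differed by less than the counting intervals. All regions of the table were centred within 1000 bp of the listed start site, so positions farther away are not covered.

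**Figure D4:**
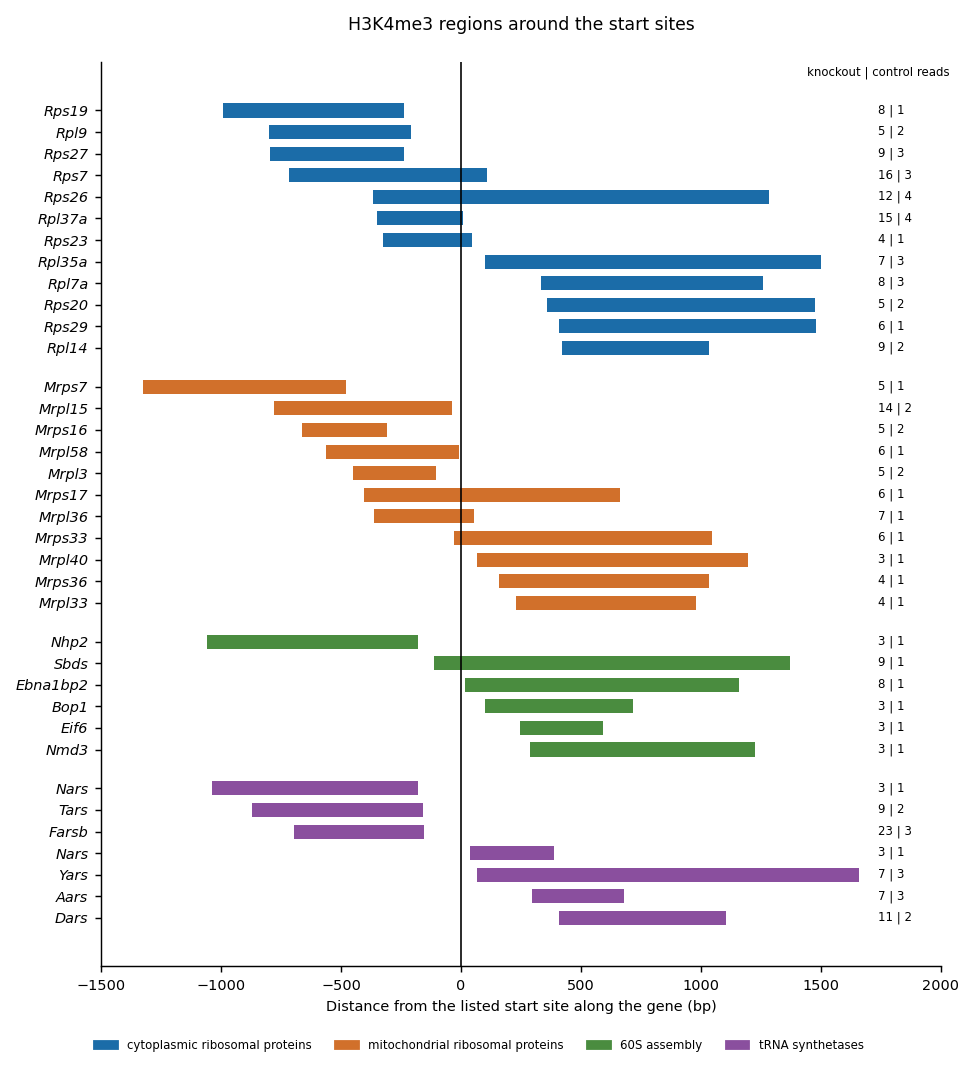
Extent of 36 of the 39 member regions of H3K4me3 along their genes, in bp from the listed start site (vertical line), with knockout and control reads at the right. Regions lie on both sides of the start site in every group, and the upstream regions of Farsb and Mrpl15 hold 23 and 14 knockout reads.

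Each region is listed under a gene name, and the rule that chose it is not known here. Of the members, 5 also lay within 200 bp of the start of another gene on the opposite strand. These were Rpl9 with Lias, Rps27 with Rab13, Mrpl40 with Hira, Ebna1bp2 with Cfap57 and Sbds with Tyw1. The starts of Lias and Rab13 lay nearer to these regions than the listed starts of Rpl9 and Rps27. For these regions the table does not separate the genes. Only starts in the RefSeq promoter set were searched, which held 28 of the 37 member genes, so 5 is a minimum. Member regions had a median width of 757 bp, against 680 bp in the table. H3K4me3 heights are the authors' own values for each region and belong to neither library here. Their median was 10.9 RPKM (reads scaled to region length and library size) in members and 11.0 in the table. It was higher in cytoplasmic ribosomal protein genes (13.4) than in mitochondrial ones (8.26), and 11 of 15 regions of the first and 2 of 11 of the second were at or above the table's median. H3K9me3 reads did not scale with width: the 348 narrowest regions of the table averaged 9.12 knockout and 2.66 control reads, and the 343 widest 8.29 and 2.25.

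Fuller lists of the translation machinery place these genes among their relatives. Of 85 genes for cytoplasmic ribosomal proteins, 14 were in the table (16.5%, 95% interval 9.31 to 26.1), and of 78 mitochondrial ones, 11 (14.1%, 7.26 to 23.8). The other 71 and 67 genes have no value here. No region of the table was centred more than 1000 bp from its listed start site. A gene is thus left out when it has no region that near, when its ratio is too low or when the control holds no read. Of 21 cytosolic synthetase genes 6 were listed (28.6%, 11.3 to 52.2), and of 17 mitochondrial synthetase genes 2 were (11.8%, 1.46 to 36.4), Lars2 and Mars2, with 4 knockout reads and 1 control read each. By symbol, 1166 of 21900 RefSeq protein-coding genes (5.32%) had a region, a share that includes genes with no H3K4me3 region, so no enrichment was tested.

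Of 58 genes for 60S assembly, 13 were listed (22.4%, 12.5 to 35.3). With the nearest region of each, these 13 genes held 85 knockout and 25 control reads, a joint ratio of 3.22 (2.04 to 5.25). The joint ratio was 4.58 for the 6 members and 3.43 for the whole table. Beyond the 6 members, Rpf1, a nucleolar factor of large subunit assembly, had an interval above 1, with 22 knockout and 9 control reads (2.31, 1.02 to 5.71). The lowest ratio of the list was at Gnl2, a nucleolar GTPase, with 11 and 5 reads (2.08, 0.67 to 7.65) in the second of its regions. The control counts of Rpf1 and Gnl2 were higher than those of the 6 members.

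Mitochondrial translation factors were listed in 8 of 24 cases (33.3%, 15.6 to 55.3). Mtif2, the initiation factor that recruits the first transfer RNA, had the highest ratio, with 35 knockout and 4 control reads (8.28, 2.96 to 32.1), and 16 and 5 in a second region (3.03, 1.06 to 10.6). Both Mtif2 regions thus had an interval above 1. The lowest ratio of this list was at Eral1, a chaperone of mitochondrial ribosomal RNA, with 21 and 8 reads (2.49, 1.06 to 6.49).

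Initiation factors were listed in 4 of 45 cases (8.89%, 2.48 to 21.2). Eif2b5, the catalytic subunit of the exchange factor for initiation, had 16 knockout and 2 control reads (7.57, 1.78 to 67.9) and Eif1ad had 21 and 5 (3.98, 1.46 to 13.5). Eif2s2 had 9 and 2 reads (4.26, 0.88 to 40.5) and Eif1a had 4 and 1 (3.79, 0.37 to 186). Of 18 elongation and termination factors 2 were listed: Eef1e1, a scaffold of the multi-synthetase complex, with 15 and 3 reads (4.73, 1.34 to 25.5), and Hbs1l, a ribosome rescue factor, with 4 and 1 (3.79, 0.37 to 186).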

How the data were processed

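H3K9me3 ChIP-seq of 2 libraries (1 knockout, 1 WT control) was deposited as a table of 1381 H3K4me3 regions. Trimming with Trimmomatic, alignment with Bowtie2 and the mouse build mm10 are named, without versions, per the submitters' processing notes. No source used here names the region caller, the counting window or how duplicate and multiply mapped reads were treated. The authors deposited H3K9me3 values as RPM, the deposited ratio of knockout to control, and H3K4me3 heights read as RPKM from the deposited values, used only for description. These heights belong to no sample of this series. Every RPM value was a whole number of reads (100.0% in each library, tolerance 0.01 reads), which gives the library totals. Values scaled to a fixed window of 1 kb cannot be told apart from this. The region caller's other 11 columns were left out.

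Intervals are exact (Clopper-Pearson) for knockout among all reads of a region, scaled by library totals, and cover counting error only, since the reads carry no molecular identifiers and may repeat a molecule. Log2 ratios used a pseudocount of 0.0405 RPM (5th percentile of nonzero values). Positions are 1-based on mm10. Members and lists were chosen with earlier results of these data known. Some members are counted in the sums and not reported here by name; all others are named. Other translation genes are the highest and lowest ratio of each list, or all where 4 or fewer were listed, and Rpf1 was named after its value was seen. Calculations used Python 3.11.15, numpy 2.4.6, pandas 2.3.3, scipy 1.17.1 and matplotlib 3.10.9. The intervals were run on simulated data without the limit to ratios above 2, so their coverage under that selection was not tested. The selection fit was run on simulated data with that limit. For the fit these were sets of 39 regions, so its behaviour in the smaller groups was not tested.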

Additional observations from a re-analysis of the deposited data

How the results depend on the processing

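Joint ratios stayed inside their counting intervals under other choices of regions, but those intervals are wide. That of 60S assembly was 4.58. Over Sbds and Ebna1bp2, its regions with an H3K4me3 height at or above the table's median, it was 8.05. Over Bop1 and Eif6, its regions centred within 500 bp, it was 2.84, and both are at the lowest listed count. Without the region with most knockout reads the joint ratio of all members was 3.79, without regions holding a single control read 3.46, and with regions centred within 500 bp 4.31. No paired analysis was possible because there was only 1 library per genotype, and no replicate could be left out. All 60S assembly regions hold a single control read, so the ratio without such regions could not be computed there.

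Scaling both libraries to equal sums over the table multiplies each ratio by 0.291 (a log2 shift of -1.78), by construction, since the table holds only ratios above 2. Joint ratios were then 1.05 (cytoplasmic ribosomal proteins), 1.28 (mitochondrial), 1.33 (60S assembly), 1.16 (synthetases) and 1.15 (all members). Median log2 ratios were 0.039, 0.25, -0.13, -0.13 and 0.072 in the same order, with 2 reversed, and counts past the size rule were 1, 0, 0, 0 and 1 (2.56% of members, against 3.19% of the table).

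The 14 members past the size rule (35.9%, against 43.4% of the table) were 53.3%, 9.09%, 33.3% and 42.9% of the groups (8, 1, 2 and 3 regions). With a pseudocount 5 times larger they were 9 (23.1%, against 19.8% of the table; 4 cytoplasmic). With no filter on the mean they were 24 (61.5%, against 66.3%; 8 mitochondrial). Where the mean had to reach the 75th percentile they were 5 (12.8%, against 22.7%; 3 cytoplasmic, 0 for 60S assembly, 1 synthetase). A fold of 3 left 11 members (28.2%, against 18.8%; 5 cytoplasmic), and a pseudocount 10 times smaller gave 17 (43.6%, against 50.8%; 5 synthetase regions). With 99% intervals the 9 regions above 1 became 4 (10.3%, against 10.4% of the table; 2 cytoplasmic, 0 for 60S assembly, 1 synthetase).

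Median log2 ratios of 1.31, 1.52, 0.94, 0.94 and 1.26 (groups in the above order, then all) were 0.76, 0.70, 0.39, 0.54 and 0.70 with the larger pseudocount. The smaller one gave 1.80 for cytoplasmic and 2.14 for mitochondrial ribosomal proteins and 1.82 for all members. Where the mean had to reach the table's median, mitochondrial genes gave 2.25 and 60S assembly 2.18. Within 500 bp, 5.88% of cytoplasmic ribosomal protein genes and 0% of elongation and termination factors (0 of 18, upper 95% limit 18.5%) were listed. The cause of these shifts was not tested. Depth limits these values, since 21 of 39 members hold a single control read.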
